A study of Mus musculus with 8 samples.

Results

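The collagen chain genes of the mouse were described across embryo stage and Runx1 genotype. Members were all genes whose symbol on the array is Col followed by a number, the letter a and a number, and whose probe sets carry that symbol alone. By this rule 42 of 18193 measured genes and 82 of 45037 probe sets were collagen chains, and each gene was read from the probe set with the highest mean log2 intensity over all 8 arrays. For 15 genes only 1 probe set was present, and 27 genes had more. They were grouped by the textbook family of the chain into 7 fibrillar, 8 cartilage, 9 basement membrane and 18 other collagens. Symbols set the membership, and measured intensity chose only the probe set of each gene. The family and its classes were picked with earlier results of these data known.

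Total RNA of embryo propers, that is, embryos freed of their extraembryonic tissue, was amplified over 2 rounds and hybridised to Affymetrix mouse whole-genome arrays. There were 4 groups of 2 arrays: wild type at embryonic day 8.5 (E8.5 wt), Runx1 knockout at the same day (E8.5 ko), and the same genotypes at embryonic day 12 (E12 wt and E12 ko). The knockout line was kept on a BALB/c background, its allele is not described further in the sources used here, and no other allele or treatment was named. The comparisons asked how expression changes when Runx1, a DNA-binding transcription factor needed to form definitive blood cells, is missing, and how it changes between the days. At E8.5 the embryo is forming its first somites, and by E12 it has limb buds and condensing skeletal mesenchyme. Because whole embryos were used, fewer cells of a type and less RNA per cell cannot be told apart in any value below.

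Collagens are secreted proteins of 3 chains wound into a triple helix. Fibrillar chains (types I, III and V) build the cables of skin, tendon and bone, and type II with types IX and XI does so in cartilage, where type X marks enlarged chondrocytes. Type IV chains form the sheet-like network of basement membranes, and the remaining families coat fibrils, make beaded filaments or short-chain lattices, or sit in the cell membrane.

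The sequence before the start site is shown for 2 fibrillar chains and 1 cartilage chain that were among the genes with the highest rises between the stages. Windows from 250 bases before to 50 bases after the start (RefSeq, GRCm38.p6) were at hand for 33 of the 42 genes, 36 windows in all. Each line gives the 250 bases before the start on the plus strand. Capitals mark matches, on either strand, to the GC box GGGCGG, the CCAAT box (ATTGG on the other strand) and the TATA box TATAAA.
Col1a2, chr6:4505368-4505617: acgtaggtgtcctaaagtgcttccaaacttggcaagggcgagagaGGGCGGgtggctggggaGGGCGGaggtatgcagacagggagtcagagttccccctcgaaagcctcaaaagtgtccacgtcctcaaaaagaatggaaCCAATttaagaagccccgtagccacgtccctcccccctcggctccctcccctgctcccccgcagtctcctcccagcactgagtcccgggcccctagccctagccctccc
Col3a1, chr1:45311288-45311537: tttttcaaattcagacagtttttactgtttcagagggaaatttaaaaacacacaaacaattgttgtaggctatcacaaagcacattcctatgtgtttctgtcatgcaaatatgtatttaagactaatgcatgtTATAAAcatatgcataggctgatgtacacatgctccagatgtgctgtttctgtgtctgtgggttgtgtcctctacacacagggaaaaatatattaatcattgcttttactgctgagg
Col11a1, chr3:114030290-114030539: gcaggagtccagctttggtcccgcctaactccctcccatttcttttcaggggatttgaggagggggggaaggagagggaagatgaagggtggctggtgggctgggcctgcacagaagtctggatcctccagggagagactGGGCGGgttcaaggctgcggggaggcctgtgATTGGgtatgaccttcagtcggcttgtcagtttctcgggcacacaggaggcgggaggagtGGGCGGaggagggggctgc

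The Col1a2 window held GC boxes and a CCAAT box and the Col11a1 window the same motifs, whereas Col3a1 held a TATA box and none of the others. Over the 36 collagen windows the GC box was present in 61.1%, against 35.7% of 32851 windows of all genes. The CCAAT box was present in 36.1% against 37.4%, and the TATA box in 13.9% against 13.6%. These shares are descriptions, and a match is not a bound site.

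Runx proteins bind the core letters TGTGGT and TGCGGT. Either was found on either strand in 6 of 36 collagen windows (16.7%), against 22.4% of all windows. The matches are printed in capitals with up to 10 bases on each side, because the knockout removed a factor that reads these letters, and each is written on the strand that holds the match.
Col19a1, chr1:24587671-24587687, plus strand: caaagtacggTGCGGTg
Col4a4, chr1:82586898-82586923, minus strand: tttaggggtgTGCGGTagggaggtgg
Col4a2, chr8:11312716-11312741, plus strand: ccgtcccgggTGCGGTgactctgcgc
Col18a1, chr10:77113702-77113727, plus strand: ggccggctccTGTGGTcctggaggtg
Col8a1, chr16:57754952-57754977, minus strand: ctttcccttcTGTGGTctctgccttt
Col17a1, chr19:47692111-47692136, minus strand: gtctataaagTGTGGTtcctgaaggc
None of these 6 genes was called between genotypes at either stage with all 8 arrays, and neither was any other collagen. Of all genes 0.00% were called at E8.5 and 0.0275% at E12, so these calls cannot tell genes with a match from the others. Col4a1 and Col4a2, which encode the pair of chains found in nearly all basement membranes, lie head to head. Their annotated start sites are 21 bases apart, placed so that the starts of the 2 transcripts overlap. The stretch from 1 start to the other, transcribed in both genes, is shown once on each strand because both genes fell between the stages.
Col4a1, chr8:11312805-11312826, minus strand: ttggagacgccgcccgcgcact
Col4a2, chr8:11312805-11312826, plus strand: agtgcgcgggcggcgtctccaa

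The array E8.5 wt replicate 1 stood apart from the other E8.5 arrays. The mean log2 intensity of 7 trophoblast and placenta genes was 8.48 there and 5.60 to 5.97 on the other 3 E8.5 arrays. For 10 parietal endoderm genes, the layer that makes the yolk sac's thick basement membrane, the mean was 9.32 there and 7.70 to 7.86 elsewhere. For 8 skeletal and connective mesenchyme genes it was 4.67 there and 5.83 to 6.13 elsewhere. Prrx1, a limb and facial mesenchyme factor, was at 3.54 there and 5.50 to 6.35 on the others, and the trophoblast gene Tpbpa at 9.52 against 4.15 to 4.24. On E8.5 wt replicate 2, in turn, 5 red cell genes averaged 11.21, against 8.38 to 8.79 on the other E8.5 arrays. Genes listed as markers of visceral endoderm, a layer of the yolk sac, averaged 11.85 to 12.88 on all E8.5 arrays. They averaged 6.77 to 7.09 on all E12 arrays, and 8 of 8 fell between the stages. An embryo proper should lack this layer, and whether other tissues held these transcripts was not tested. The stage calls that changed without E8.5 wt replicate 1 are given with the family counts below.

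Runx1 itself, read from the brightest of its 6 probe sets, was at 6.16 and 5.95 on the wild-type arrays of E8.5 and at 6.41 and 6.86 on the knockout arrays. At E12 the wild-type values were 7.06 and 6.39 and the knockout values 7.10 and 6.86. The knockout arrays were not lower, and whether this probe set reads the disrupted stretch was not given by the sources, so it checks nothing about the labels. The mean of 5 macrophage and platelet genes at E12 was 8.59 and 8.57 on the wild-type arrays against 5.43 on both knockout arrays, and 3 of the 5 fell in the knockout.

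Between E8.5 and E12 most collagen genes were higher at the later stage, the type IV pair Col4a1 and Col4a2 were lower, and most of the other basement membrane chains passed no test. On the mean of both genotypes, 25 of 42 collagen genes rose, 2 fell and 15 did not pass an adjusted p of 0.05 (limma, with the Benjamini-Hochberg correction made across every non-control probe set). Of all 18193 genes, 50.3% were called at this threshold, 23.5% as higher and 26.8% as lower. The collagens were thus called higher in a larger share than all genes and called lower in a smaller share. The median log2 difference over the 42 genes was 0.83, beside 0.01 over all probe sets. In 25 genes all 4 E12 arrays lay above all 4 E8.5 arrays and in 2 all lay below. Of all genes 25.3% lay above, 27.2% below and 52.5% in either. The plots of levels per array and of the stage difference show both directions.

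**Figure D1:**
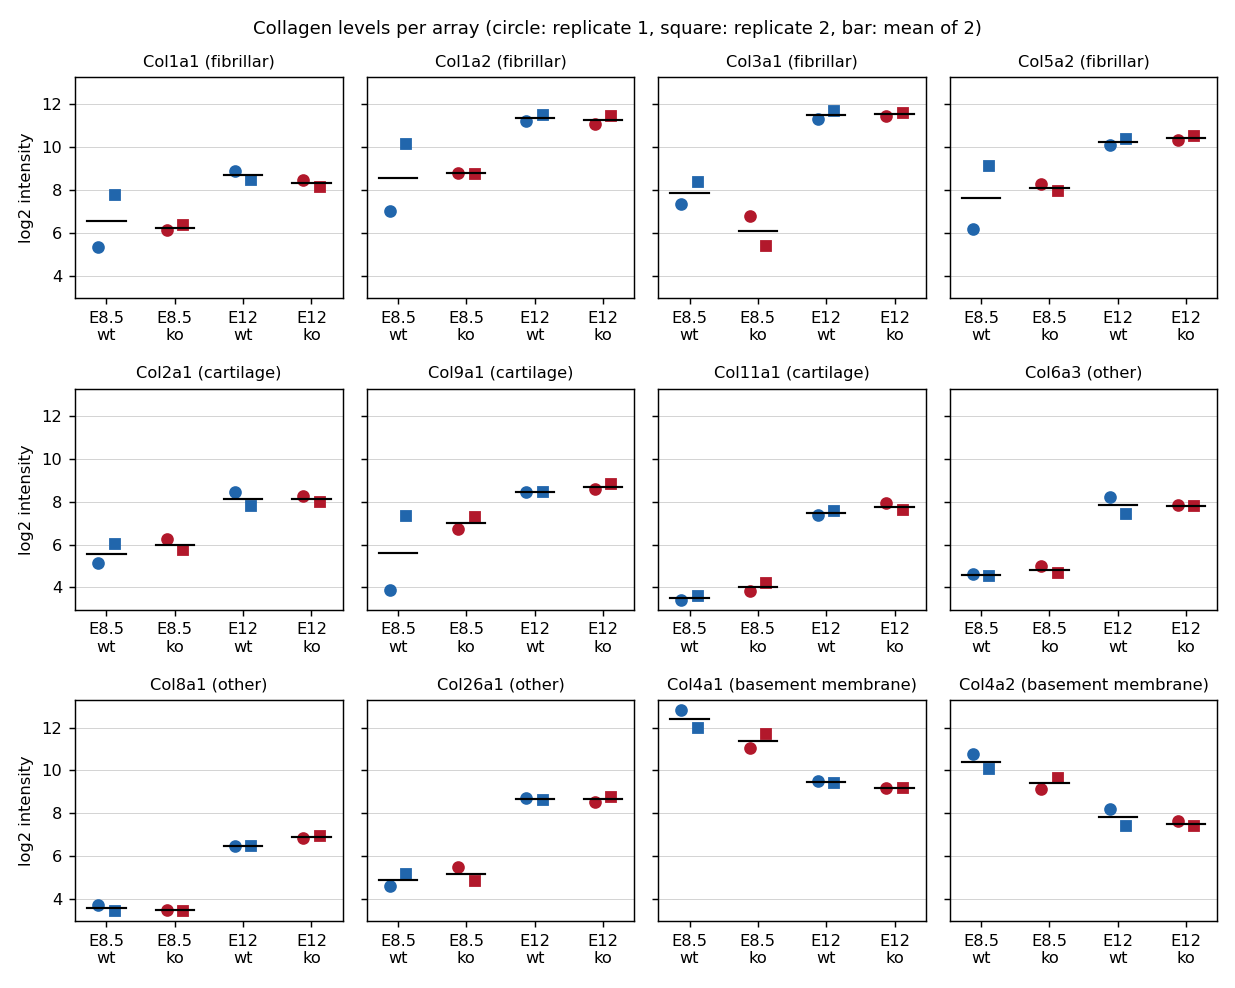
Log2 intensity of 12 collagen genes on each of the 8 arrays, with wild type in blue, knockout in red, circles for replicate 1, squares for replicate 2 and a bar for the mean of 2. Col3a1 ran from 5.37 to 8.38 at E8.5 and from 11.31 to 11.69 at E12, whereas Col4a1 ran from 11.06 to 12.80 and then from 9.17 to 9.52.

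**Figure D2:**
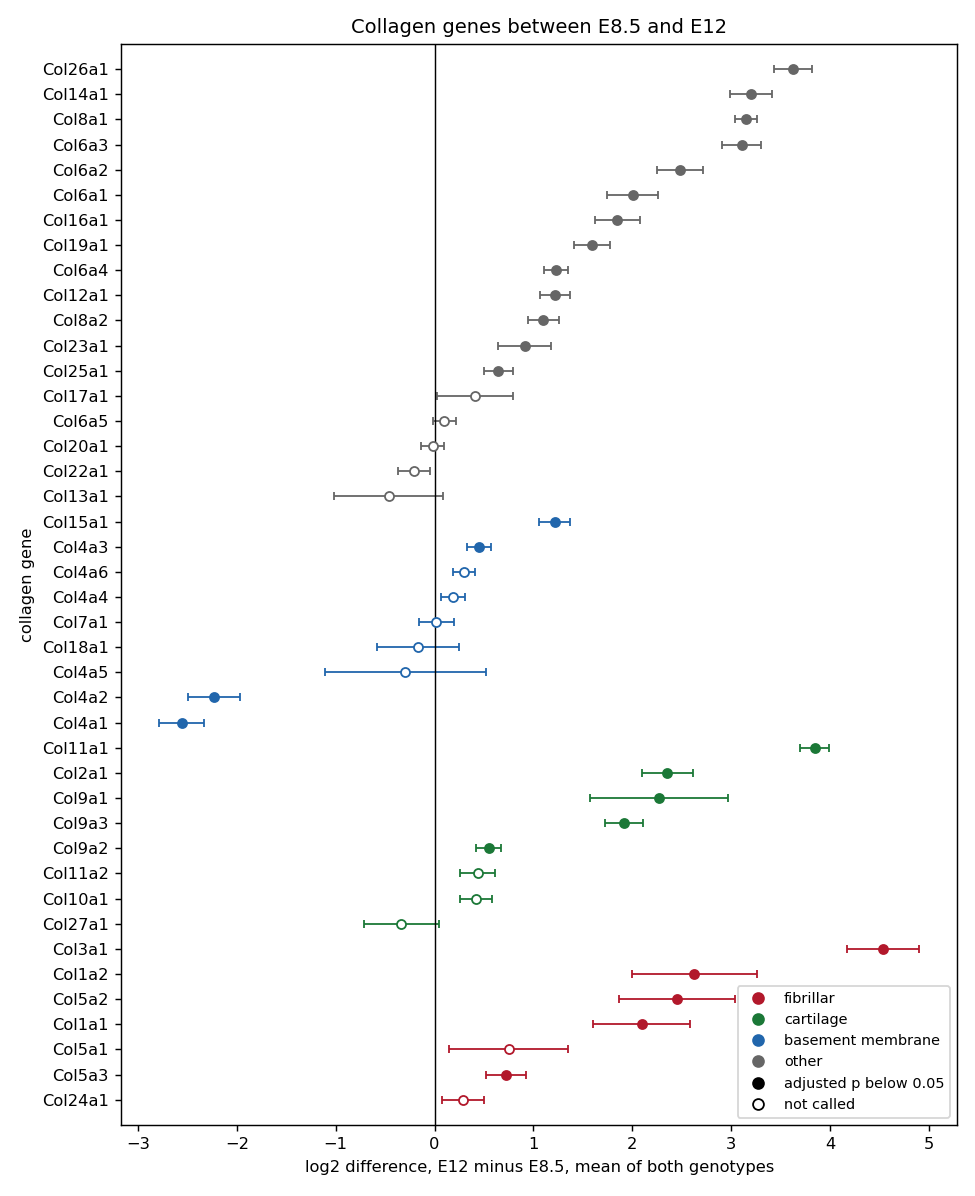
Log2 difference between E12 and E8.5 on the mean of both genotypes for all 42 collagen genes, coloured by class, with bars of 1 SE from the limma fit. Filled points passed an adjusted p below 0.05; the filled points left of 0 are Col4a1 and Col4a2.

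Of the 7 fibrillar genes, 5 rose and 2 passed no test, with a median log2 difference of 2.10. Col3a1, the chain of type III collagen of vessels and soft tissue, was at 7.36 and 8.38 on the wild-type and 6.81 and 5.37 on the knockout arrays at E8.5. At E12 it was at 11.31 and 11.69, and at 11.45 and 11.62. Every E12 array was above every E8.5 array, and the 4 E12 values were close together. The rise was 4.54 (SE 0.37, adjusted p = 0.000354, limma), a 23.2-fold difference and the highest of the family.

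The type I chains Col1a1 and Col1a2 form the main collagen of bone and skin. Col1a2 was at 7.01 and 10.15 (wild type) and 8.81 and 8.76 (knockout) at E8.5. By E12 its values were 11.22, 11.49, 11.08 and 11.46. The E8.5 wild-type arrays lay on opposite sides of the knockout arrays, and no E8.5 array reached the E12 range. The rise was 2.63 (SE 0.63, adjusted p = 0.0157, limma). Col1a1 was at 5.37, 7.75, 6.13 and 6.38 at E8.5 and at 8.90, 8.48, 8.48 and 8.15 at E12, a rise of 2.10 (SE 0.49, adjusted p = 0.0143, limma). It had the same wide gap between the E8.5 wild-type arrays.

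Col5a2, a type V chain that sets fibril width, was at 6.19, 9.11, 8.28 and 7.94 at E8.5 and at 10.10, 10.37, 10.33 and 10.51 at E12. It rose by 2.45 (SE 0.59, adjusted p = 0.0158, limma), with no overlap of the stages. Col5a3 rose by 0.72 (SE 0.20, adjusted p = 0.0287, limma). Col5a1, the partner of Col5a2, was at 6.14 and 8.98 on the E8.5 wild-type arrays, so its difference of 0.75 had an SE of 0.61 and passed no test. It was 0.04 without E8.5 wt replicate 1 and 1.46 (adjusted p = 0.00483, limma) without E8.5 wt replicate 2. A dimmer probe set of the gene rose by 1.18 (adjusted p = 0.0182, limma), with all E12 arrays above all E8.5 arrays, and the dimmest differed by 0.27. Col24a1, which lay below the array median on every array, differed by 0.29 and passed no test. In Col1a1, Col1a2, Col5a1 and Col5a2 the E8.5 wild-type arrays lay more than 2 log2 units apart. Leaving out E12 ko replicate 1, E12 ko replicate 2 or E8.5 ko replicate 2 ended the call of Col1a2 (adjusted p 0.0507 to 0.0604) and of Col5a2 (0.0541 to 0.0588). Leaving out E12 ko replicate 1, E12 wt replicate 1 or E8.5 ko replicate 1 did so for Col1a1 (0.0502 to 0.0582). The same held for Col5a3 without any 1 of E12 ko replicate 1 or 2, E12 wt replicate 1, and E8.5 ko replicate 1 or 2 (0.0592 to 0.101). The Col5a3 call was also lost under quantile normalization, which forces the arrays to 1 common distribution (difference 0.55, adjusted p = 0.0845, limma). The differences stayed positive in each of these fits. With all 8 arrays, a dimmer Col1a2 probe set rose by 2.76 (adjusted p = 0.00796, limma), and its dimmest differed by 0.39 and passed no test. By their second probe sets Col1a1 rose by 0.86 (adjusted p = 0.0150, limma) and Col5a2 by 2.59 (adjusted p = 0.00698, limma). That of Col5a3 differed by 0.08 and passed no test.

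Of the 8 cartilage genes, 5 rose and 3 passed no test, with a median of 1.23. Col11a1, a type XI chain at the core of cartilage fibrils, was at 3.42 and 3.62 (wild type) and 3.83 and 4.21 (knockout) at E8.5. At E12 it was at 7.38, 7.57, 7.92 and 7.59. No E8.5 array came near the E12 range, and the rise of 3.85 (SE 0.15, adjusted p = 4.96e-05, limma) was 14.4-fold. Its second probe set rose by 1.98.

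Col2a1, the main cartilage collagen, was at 5.13, 6.01, 6.24 and 5.73 at E8.5 and at 8.45, 7.82, 8.26 and 8.002 at E12. The stages did not overlap, and the rise was 2.36 (SE 0.26, adjusted p = 0.000876, limma). The type IX chains, which decorate type II fibrils, all rose: Col9a3 by 1.91, Col9a1 by 2.27 and Col9a2 by 0.55. The dimmer second probe set of Col9a1 rose by 2.42 (SE 0.23, adjusted p = 0.000576, limma) with all 8 arrays. It ran from 5.38 to 5.80 at E8.5, with 5.44 on E8.5 wt replicate 1, and from 7.31 to 8.28 at E12. By its brighter probe set, Col9a1 was at 3.87 on E8.5 wt replicate 1 and at 7.35, 6.73 and 7.29 on the other E8.5 arrays, against 8.44 to 8.82 at E12. Its SE was 0.70, and its call (adjusted p = 0.0386, limma) held in only 2 of 8 fits that left out 1 array, those without E8.5 wt replicate 1, where the rise was 1.40, and without E8.5 wt replicate 2, where it was 3.14. In the other fits its difference was 2.13 to 2.41 and its adjusted p 0.0833 to 0.112. The Col9a2 call was lost without E12 ko replicate 2 (difference 0.46, adjusted p = 0.0623, limma) or E8.5 ko replicate 2 (0.53, adjusted p = 0.0534, limma). It was also lost under quantile normalization (0.35, adjusted p = 0.0704, limma). Col10a1, the collagen of enlarged chondrocytes, differed by 0.42, Col11a2 by 0.44 and Col27a1 by -0.34, none past the threshold.

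Most non-collagen cartilage genes were higher at E12. Of 13 measured, 9 had a positive difference and 4 a negative one, with a median of 0.67. Of these 13, 7 rose and 1 fell, beside 23.5% and 26.8% of all genes. Sox9, which encodes the main activator of the cartilage programme, rose by 3.06, and its E8.5 values of 4.85 to 5.65 lay below the 7.98 to 8.23 of E12. Hapln1, a cartilage link protein, fell by 2.11. The core proteoglycan Acan differed by -0.04 and Matn1 by -0.23, both matrix genes of mature cartilage and neither past the threshold. These and Hapln1 were among the 4 genes of the list with a negative difference.

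Of the 9 basement membrane genes, 2 rose, 2 fell and 5 passed no test, and the median was 0.02. Col4a1 was at 12.80 and 11.96 (wild type) and 11.06 and 11.68 (knockout) at E8.5. The E12 arrays, in the same order, read 9.52, 9.41, 9.19 and 9.17. All E12 arrays were below all E8.5 arrays, and within E8.5 the highest value was on the array that stood apart. The gene fell by 2.56 on the log2 scale (SE 0.23, adjusted p = 0.000462, limma). Its second probe set differed by -0.72 and passed no test (adjusted p = 0.0933, limma).

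Col4a2 followed the same order, with 10.78 and 10.05 (wild type) and 9.12 and 9.66 (knockout) on the E8.5 arrays, then 8.22, 7.42, 7.64 and 7.40 on the E12 arrays. It fell by 2.23 on the log2 scale (SE 0.26, adjusted p = 0.00106, limma), and the stages did not overlap. Without any 1 array the difference of Col4a1 stayed between -2.77 and -2.34 and that of Col4a2 between -2.43 and -2.03. Both falls were smaller under quantile normalization, at -1.31 and -1.38, and both were still called. The visceral and parietal endoderm markers given above moved the same way between the stages, and their part in the fall was not tested.

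The chains Col4a3 to Col4a6, which replace the common pair in kidney, lung and other specialised membranes, gave 1 small rise and no fall with all 8 arrays. Col4a3 was at 3.65, 3.76, 3.89 and 3.53 at E8.5 and at 4.13 to 4.17 at E12, a rise of 0.45 (SE 0.12, adjusted p = 0.0248, limma). The call was lost under quantile normalization (difference 0.33, adjusted p = 0.0826) and, with differences of 0.36 to 0.45 and adjusted p of 0.0522 to 0.0849, in the fits without E8.5 ko replicate 2 or any 1 E12 array. A second Col4a3 probe set differed by 0.11 and passed no test. Col4a4 differed by 0.19 and Col4a6 by 0.30, neither past the threshold. Col4a5 was at 4.37 on E8.5 wt replicate 1, at 8.48, 7.26 and 7.39 on the other E8.5 arrays and at 6.44 to 6.75 at E12. Its difference of -0.30 became -1.32 (adjusted p = 0.000495, limma) without that array and 0.73 without E8.5 wt replicate 2, so its direction rested on 1 array.

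Col15a1, a basement membrane collagen of vessels and muscle, rose by 1.22 (SE 0.16, adjusted p = 0.00159, limma). Its E8.5 arrays ranged from 4.01 to 4.64 and its E12 arrays from 5.03 to 5.80. Its relative Col18a1, the source of endostatin, was at 8.07 on E8.5 wt replicate 1 and about 2 log2 units higher on the other E8.5 arrays, 10.13 at most, with a range of 9.28 to 9.58 for the E12 arrays. The difference of -0.16 passed no test. Without E8.5 wt replicate 1 every E8.5 array lay above every E12 array and the gene fell by 0.68 on the log2 scale (adjusted p = 0.00432, limma), whereas without E8.5 wt replicate 2 the difference was 0.35 (adjusted p = 0.0551, limma). Col7a1, the anchoring fibril chain of skin, differed by 0.02.

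Of the 18 other collagens, 13 rose and none fell, with a median of 1.22. The short-chain collagen gene Col8a1 was at 3.71, 3.43, 3.496 and 3.45 at E8.5 and at 6.49, 6.46, 6.83 and 6.92 at E12. Its rise of 3.15 (SE 0.11) had the lowest adjusted p of the family, 3.94e-05 (limma), and Col8a2 rose by 1.10. A second Col8a1 probe set rose by 0.49, and the last differed by -0.02.

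Type VI chains form beaded filaments around cells. Col6a3 was at 4.64, 4.55, 4.999 and 4.66 at E8.5 and at 8.23, 7.43, 7.84 and 7.79 at E12, a rise of 3.11 (SE 0.20, adjusted p = 0.000193, limma). Col6a2 rose by 2.48, Col6a1 by 2.00 and Col6a4 by 1.23, each with all E12 arrays above all E8.5 arrays. Col6a5, which lay below the array median on every array, differed by 0.10 and passed no test.

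Col14a1 and Col12a1 encode fibril-coating collagens of dense connective tissue. Col14a1 was at 3.39, 4.31, 4.12 and 4.01 at E8.5 and at 7.18, 7.03, 7.13 and 7.31 at E12, a rise of 3.20 (SE 0.21, adjusted p = 0.000210, limma). In the same group Col16a1 rose by 1.85, Col19a1 by 1.59 and Col12a1 by 1.22, while Col20a1 (-0.02) and Col22a1 (-0.21) passed no test. Col26a1, which encodes a small collagen with an EMI domain, was at 4.60, 5.14, 5.50 and 4.86 at E8.5 and at 8.71, 8.61, 8.54 and 8.75 at E12. Its rise was 3.63 (SE 0.19, adjusted p = 0.000123, limma), and the stages were far apart.

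Among the membrane-spanning collagens, Col23a1 rose by 0.91 and Col25a1 by 0.64, while Col13a1 (-0.46) and Col17a1 (0.41) passed no test. For Col25a1, made by neurons, the dimmer second probe set rose by 4.22, so its size depended on the probe set. The Col23a1 call was lost, at adjusted p of 0.0720 to 0.115, in the fits without E12 ko replicate 1 or 2, E12 wt replicate 1, or E8.5 ko replicate 1 or 2.

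Across the family, 19 of the 27 stage calls held in all 8 fits that left out 1 array, 18 held in every setting tried, and no called gene changed sign. Without E8.5 wt replicate 1 the count was 33, with 27 higher and 6 lower. All 27 calls made with 8 arrays were among them. The others that rose were Col10a1 (0.50) and Col17a1 (0.83). On this deposited scaling Col4a5 (-1.32), Col13a1 (-1.09), Col18a1 (-0.68) and Col27a1 (-0.77) fell beside the type IV pair. Without E8.5 wt replicate 2, in turn, 30 were called, with Col4a5 (0.73), Col5a1 (1.46) and Col24a1 (0.51) added as higher. Col4a5 was thus called in opposite directions in these fits. In 10 of the called genes another probe set of the gene passed no test, and in none was another called in the opposite direction. Each stage's scaling is not known: the 99th percentile of log2 intensity ranged between 12.24 and 12.30 over the E8.5 arrays but between 10.51 and 11.09 over the E12 arrays. Quantile normalization kept 24 of the 27 calls, losing Col4a3, Col5a3 and Col9a2. Subtracting array medians lost these and Col9a1, Col23a1 and Col25a1 (adjusted p 0.0507 to 0.137). Quantile normalization raised the difference of Col3a1 from 4.54 to 5.47 and that of Col1a2 from 2.63 to 3.75. The plot of both scalings shows these bright genes off the diagonal and the uncalled difference of Col18a1 turning positive.

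**Figure D3:**
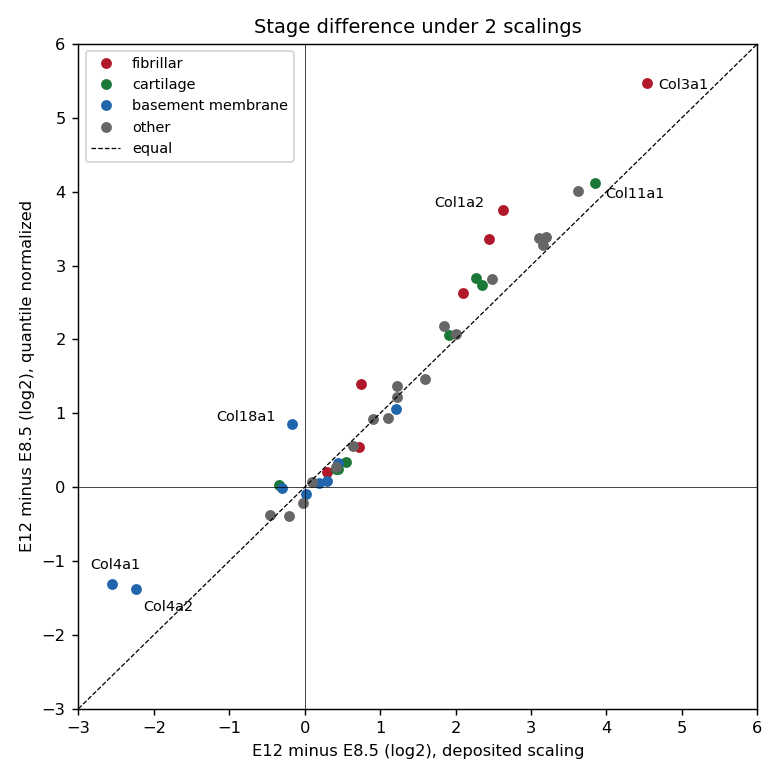
Log2 difference between E12 and E8.5 for each of the 42 collagen genes with the deposited scaling (horizontal) and after quantile normalization of the 8 arrays (vertical), coloured by class, with a dashed line where both are equal. Col4a1 and Col4a2 moved from -2.56 and -2.23 to -1.31 and -1.38, and Col18a1 from -0.16 to 0.85.

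Taken within each genotype, with 2 arrays on either side, 16 collagens rose and 2 fell in wild type (of all genes 34.4% were called, 14.8% as higher and 19.6% as lower). In the knockout embryos 16 again rose and 2 fell (32.0% of all genes, 13.8% as higher and 18.3% as lower). Both comparisons of E12 with E8.5 use different arrays but share 1 estimate of the spread, so they are not separate tests. With only the compared arrays fitted, 8 genes were called in wild type and 30 in knockout. Col4a1 fell in both, with a log2 difference of -2.92 in wild type and -2.19 in knockout, and so did Col4a2, with -2.60 and -1.87. With the arrays of the other genotype left out of the fit, the wild-type fall of Col4a2 was not called (-2.60, adjusted p = 0.0526, limma), and without E8.5 ko replicate 2 neither was its fall in knockout (-1.60, adjusted p = 0.0920, limma). In knockout these falls lost their calls under quantile normalization, at -1.06 (adjusted p = 0.0832, limma) and -1.14 (adjusted p = 0.108, limma), and Col4a2 also with E8.5 wt replicate 1 left out of that normalization (-1.12, adjusted p = 0.0745, limma). In wild type both did so in the latter setting, at -1.17 for Col4a1 (adjusted p = 0.0520, limma) and -1.31 for Col4a2 (adjusted p = 0.0875, limma). The difference between genotypes was not called for either gene (0.72 with SE 0.45, and 0.73 with SE 0.52). Without E12 ko replicate 1 only 6 knockout calls were left, without E12 ko replicate 2 only 8 and without E8.5 ko replicate 2 only 11, and no knockout call was a fall in the first pair of fits. Leaving out E8.5 wt replicate 1 gave 27 wild-type calls.

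The genes that make, bind and cut collagens were taken from lists of the pathway. Of all genes 23.5% were called higher and 26.8% lower between the stages, and the list counts stand beside these shares. Of 18 enzymes that modify or secrete collagen chains in the cell, 2 rose and 8 fell, with a median of -0.74. P3h2, a prolyl 3-hydroxylase of type IV collagen, was at 7.91, 8.06, 8.11 and 8.43 at E8.5 and at 6.17, 5.93, 6.13 and 6.07 at E12, a log2 difference of -2.05 (adjusted p = 0.000182, limma). Ppib, a prolyl isomerase that folds collagen, differed by -1.79. Over the whole list, 11 of the 18 genes had a negative difference.

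Outside the cell the direction differed between lists. Called genes were mostly higher for processing and fibril binding, and mostly lower for basement membrane partners. Of 9 genes for processing and crosslinking, 4 rose and none fell, among them Bmp1 (1.42), whose product trims procollagen, and the lysyl oxidase gene Loxl3 (1.60). Of 13 matrix genes whose products bind fibrils, 8 rose and 2 fell, with Bgn (2.53) between 7.57 and 8.14 on the E12 arrays and Kera rising by 1.84. Of 11 basement membrane partners, 5 fell and 1 rose, with a median of -0.99. Lamb1, a laminin chain, was at 11.34, 11.45, 10.02 and 10.43 at E8.5 and at 8.07 to 8.54 at E12, a log2 difference of -2.55, and Lama2, the laminin chain of muscle, rose by 1.60.

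Of 7 collagen receptors 2 rose, a share near that of all genes called higher. Ddr2, a tyrosine kinase that binds fibrillar collagen, went from between 4.69 and 5.21 to between 7.89 and 8.20, a rise of 3.17, and Gp6, the platelet receptor, rose by 0.52. Of 7 collagen-cleaving proteases 3 rose, including Ctsk (2.68) and Mmp8 (0.62). The mesenchyme markers, which Col1a2 and Col3a1 accompany in the embryo, had 3 of 8 genes called higher. Prrx1 lay between 7.46 and 8.51 on the E12 arrays, and its part in the collagen rises was not tested. The other marker lists moved in mixed directions. Neural tissue had 4 of 6 genes called higher, red cells 2 of 5, and macrophages and platelets 4 of 5 with 1 lower. Endothelium had 3 of 4 called lower, maternal decidua 3 of 7 with 1 higher, trophoblast 3 of 7 with 2 higher, parietal endoderm 6 of 10, and notochord 1 of 2 in each direction. Of the 6 pathway lists, no gene was called between genotypes at either stage, where 0.00% (E8.5) and 0.0275% (E12) of all genes were called.

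**Figure D4:**
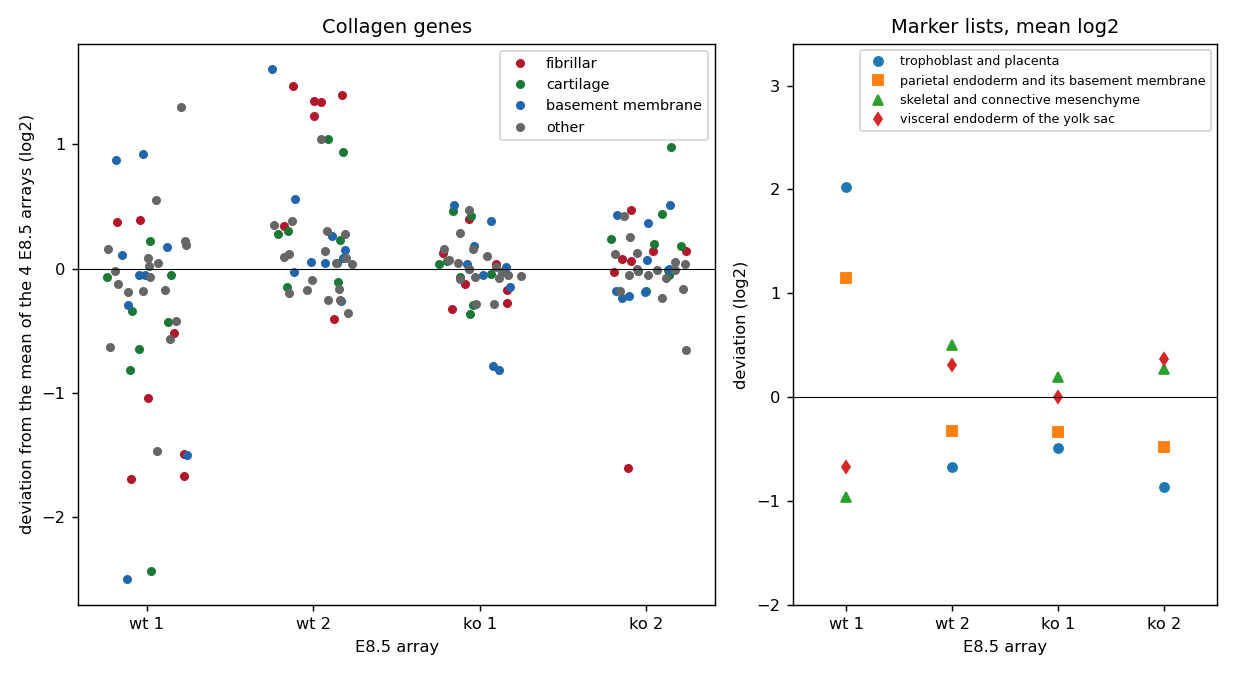
Left, deviation of each of the 42 collagen genes from its mean over the 4 E8.5 arrays (log2), per array and coloured by class, with sideways scatter for legibility only. Right, the same deviation for the mean of 4 marker lists. On the array wt 1 the fibrillar collagens had a median deviation of -1.04 and on wt 2 of 1.34, and the trophoblast list was highest on wt 1.

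The spread at E8.5 was not even over the family, as the plot of deviations of the E8.5 arrays shows. E8.5 wt replicate 1 was the lowest of the 4 E8.5 arrays in 22 of 42 collagens, against 28.8% of all genes, and the highest in 12, against 30.8%. It was lowest in 5 of 7 fibrillar and 6 of 8 cartilage genes, and in 3 of 9 basement membrane genes, where it was highest in 4. The median absolute difference between replicates over the 42 genes was 0.55 in E8.5 wild type, 0.245 in E8.5 knockout, 0.30 in E12 wild type and 0.18 in E12 knockout. Over all genes it was 0.35, 0.22, 0.30 and 0.14. The trophoblast, endoderm and mesenchyme lists moved with this array, and their part in its collagen values was not tested.

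Between knockout and wild type no collagen gene was called by limma at E8.5 or at E12, and none for the difference between the stages. Of all genes 0.00%, 0.0275% and 0.0110% were called in these comparisons. At an unadjusted p under 0.05 there were 3 of 42 collagens at E8.5, against 5.27% of all genes, and 1 at E12, against 2.26%, so neither stood out from the background. By the study's own threshold, an absolute moderated t above 3 with no correction for the number of tests, 2 collagens passed at E8.5 (2.31% of all genes) and none at E12 (0.973% of all genes). The arrays of the genotypes did not overlap for 4 collagens higher and 7 lower in knockout at E8.5, and for 7 higher and 4 lower at E12. Of all genes 29.1% and 30.6% did not overlap at these stages, shares near the 11 of 42 collagens. For 3 collagens (Col4a6, Col15a1 and Col20a1) the knockout arrays lay on opposite sides of wild type at E8.5 and E12, as for 2.61% of all genes.

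**Figure D5:**
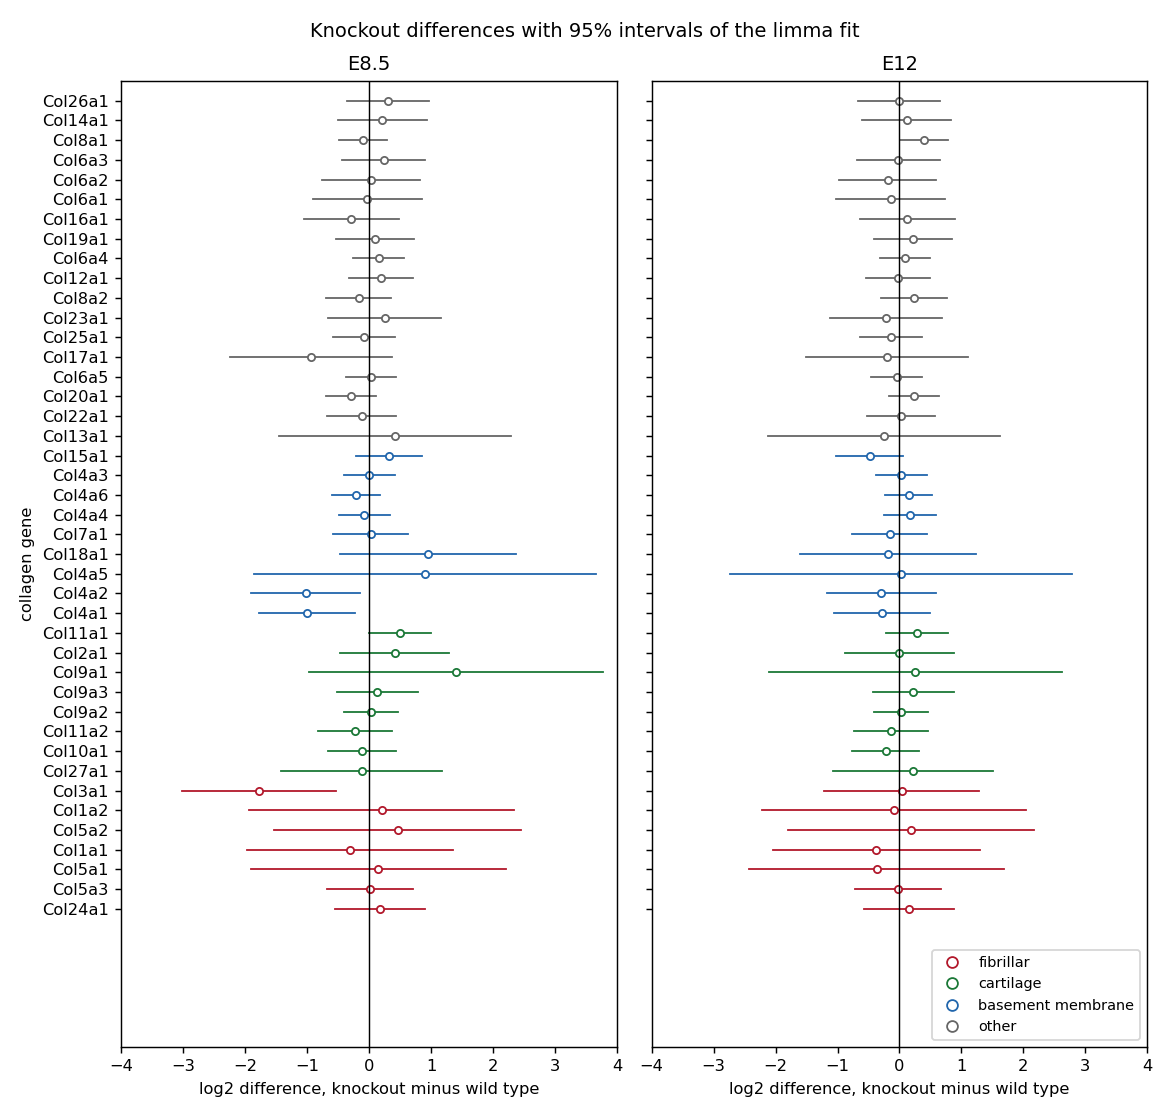
Log2 difference between Runx1 knockout and wild type at E8.5 (left) and E12 (right) for the 42 collagen genes, coloured by class, with 95% intervals of the limma fit as lines. No gene passed an adjusted p below 0.05; the intervals that miss 0 are those of Col3a1, Col4a1 and Col4a2 at E8.5 and Col8a1 at E12.

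The genes past the study's threshold at E8.5 were Col3a1 and Col4a1. Col3a1 was at 7.36 and 8.38 in wild type and at 6.81 and 5.37 without Runx1, a difference of -1.78 (SE 0.52, 95% interval -3.02 to -0.53, adjusted p = 0.999, limma). At E12 its difference was 0.03. The dimmer second probe set of Col3a1 differed by -0.35 (SE 0.15) at E8.5 and by -0.09 at E12, so the size depended on the probe set. Col4a1 was at 12.80 and 11.96 against 11.06 and 11.68, a difference of -1.01 (SE 0.32), and its neighbour Col4a2 differed by -1.02 (SE 0.37). Without E8.5 wt replicate 1 these became -0.59 and -0.66, and without E8.5 wt replicate 2 they became -1.43 and -1.39. Of the 10 parietal endoderm genes 8 were lower in knockout at E8.5, with a median of -0.73 and none called. Of all 18193 genes 9518 were lower. The list, which includes the laminin genes Lamb1, Lamc1 and Lama1, averaged 9.32 on E8.5 wt replicate 1 and 7.86 on E8.5 wt replicate 2. It averaged 7.84 and 7.70 on the knockout arrays, so its drop came mostly from E8.5 wt replicate 1. Its part in the type IV values was not tested. Both knockout values lay below both wild-type values for Col3a1, Col4a1 and Col4a2. At E12 Col4a1 differed by -0.29 and Col4a2 by -0.29.

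The other collagens with the highest absolute t were given by the same rule. At E8.5, Col11a1 differed by 0.50, Col20a1 by -0.29 and Col17a1, a hemidesmosome collagen of skin, by -0.94. Its wild-type values were 5.38 and 3.72, and its knockout values 3.79 and 3.42. At E12, Col8a1 was at 6.49 and 6.46 in the wild-type pair and at 6.83 and 6.92 in the knockout pair, a difference of 0.40 (SE 0.16, adjusted p = 0.999987, limma), the only collagen there with an unadjusted p under 0.05. Col15a1 was at 5.66 and 5.80 against 5.03 and 5.45, a difference of -0.48 (SE 0.22). This was the highest absolute difference of the family at E12.

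The spread around each genotype difference is given by the 95% intervals of the fit, which make no allowance for the number of genes tested. A difference could lie well past such a half-width and not be called: Lamb1 at E8.5 differed by -1.17 (SE 0.20) and had an adjusted p of 0.864 (limma). For the collagens the median half-width was 0.68, from 0.38 for Col4a6 to 2.76 for Col4a5. At each stage the whole interval lay within 1 log2 unit of 0 for 26 of 42 collagens, so a 2-fold difference lay outside it for these genes. For fibrillar genes this held in 2 of 7, and for Col1a2 the half-width was 2.13. For most fibrillar collagens a 2-fold difference between genotypes was therefore not detectable here, and for the others the interval does not say that one would have been called. The fit gives both stages 1 spread, while the mean residual variance over all probe sets was 0.215 at E8.5 and 0.0735 at E12, so on average the intervals are too narrow at E8.5 and too wide at E12.

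The count of 0 at E8.5 changed with 1 array. Without E8.5 wt replicate 2, which leaves the array that stands apart as the lone wild-type sample and assumes that it varies like the other groups, 7 collagens were called at E8.5. These were Col1a2 (1.77), Col4a5 (2.96), Col5a2 (1.92), Col9a1 (3.14) and Col18a1 (1.98), higher in knockout, and Col4a1 (-1.43) and Col17a1 (-1.77), lower. The difference between the stages was then called for Col1a2 (-1.86), Col4a5 (-2.93), Col9a1 (-2.89) and Col18a1 (-2.17). Without E8.5 wt replicate 1 no collagen was called. At E12 the count was 0 in all 8 fits that left out 1 array.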

How the data were processed

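Per the labels and the study's methods, total RNA of 8 embryo propers, 2 per group, was amplified and hybridised to Affymetrix whole-genome mouse arrays. The authors deposited linear probe set intensity values, normalized and summarised by Robust Multi-array Analysis; no source used here says whether all 8 arrays were normalized together. The deposited intensities were converted to log2 with no pseudocount. The 64 control probe sets were left out of 45101. Of the others, 34945 carried 1 gene symbol in the platform annotation, 932 several and 9160 none. Promoter windows came from RefSeq (GRCm38.p6).

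Groups were compared with limma 3.58.1 (R 4.3.3), with 1 mean per group, all 8 arrays in 1 fit, moderated t on 6.54 degrees of freedom, and Benjamini-Hochberg adjustment over 45037 probe sets. With 2 arrays per group, p-values measure only the spread between these samples, and the number of arrays limits the precision. A gene was called at an adjusted p below 0.05. The study's own threshold, an absolute t above 3, was a second rule. Members, gene lists and classes were chosen with earlier results of these data known. Named for the stage comparison were up to 24 called members with the highest absolute difference and the first 2 of each class. Named for each genotype comparison were members past an absolute t of 3, filled to 6 by t, and the paired type IV genes throughout. Genes outside this rule, the pathway and marker genes among them, were named after their values were seen.

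Alternatives were array medians subtracted, quantile normalization, log2 of intensity plus 16, brighter probe sets only, the mean of a gene's probe sets, array weights, a trended and robust variance, only the arrays compared, a replicate block, and each array left out. Quantile normalization of 7 arrays, without E8.5 wt replicate 1, was added after seeing the data. On simulated data for the stage comparison over 45037 probe sets, 30, 49, 49 and 50 of 50 changes of 1, 2, 3 and 4 log2 units were recovered, with 5 false calls. The simulated noise was normal, independent and equal in spread at both stages, and few probe sets changed. The data differ in this, so these figures need not hold for them.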

Additional observations from a re-analysis of the deposited data

Results flagged for a closer look

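For 3 collagens the knockout arrays lay on opposite sides of wild type at the 2 stages, a pattern seen in 2.61% of all genes. The knockout effect at E12 minus that at E8.5 was 0.3645 for Col4a6, -0.8029 for Col15a1 and 0.5248 for Col20a1 on the log2 scale. For Col20a1 the stage difference itself also ran in opposite directions in wild type and knockout arrays, with the same difference of 0.5248. None passed the limma test of this difference (adjusted p = 0.999741 for each).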

How the results depend on the processing

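The stage counts on both genotypes ran from 20 to 33 of 42 when 1 array was left out and from 21 to 28 in the other settings. Subtracting array medians, which moved the median of all probe sets from 0.01 to -0.189, left 21. With only the compared arrays fitted, 8 genes were called in wild type and 30 in knockout. With 1 array left out these counts ran from 16 to 27 and from 6 to 25, the count between genotypes at E8.5 from 0 to 7 and that of the stage difference of the knockout effect from 0 to 4. By an absolute t above 3 it was 2 at E8.5. Correlations of the deviations of same-numbered replicates ran from -0.121 to 0.372, the highest between E8.5 wild type and E8.5 knockout. With 2 arrays per group they cannot tell whether the replicate numbers pair the samples. With the replicate block 26 genes were called between stages, the call of Col23a1 being lost (adjusted p = 0.0508), 18 in each genotype and 0 between genotypes.

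Class medians moved as follows. For cartilage genes between stages the median was 2.267 with brighter probe sets only, 0.9352 with 16 added and 0.7678 with the mean of probe sets. For the other collagens it was 1.539, 0.9753 and 0.9824. Between genotypes at E8.5 it was 0.4132 for cartilage genes with brighter probe sets only and -1.098 for fibrillar genes with 7 arrays quantile-normalized. With 1 array left out, the fibrillar median there ran from -1.275 to 0.8881 and the cartilage median from -0.1346 to 0.5463, and the median of the other collagens at E12 from -0.1636 to 0.2461.

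The sign of these uncalled differences changed, and the cause was not tested. With array medians subtracted, Col4a4 was at -0.01182 between stages, and in wild type Col4a4 was at -0.129, Col4a5 at -0.05202 and Col4a6 at -0.07687. Quantile normalization gave -0.05049 for Col4a4 and -0.08668 for Col4a6 in wild type and -0.002464 for Col4a3 between genotypes at E8.5. With 7 arrays it gave -1.378 for Col4a5 and -0.0004913 for Col4a6 in wild type. Between genotypes at E8.5 it gave -0.04323 for Col4a3, 0.01076 for Col4a4 and -0.9433 for Col4a5, whose stage difference of the knockout effect was 0.9636. With 16 added, Col4a5 was at -0.07892 in wild type. The mean of probe sets gave, between genotypes at E12, -0.02313 for Col4a3, -0.001334 for Col4a5, -0.01911 for Col4a6 and -0.0784 for Col20a1, and -0.06878 for Col4a3 in the stage difference of the knockout effect. With 1 array left out, Col4a5 ran from -1.323 to 0.7322 between stages and from -1.914 to 2.196 in wild type, and Col4a4 there from -0.005563 to 0.1338. Between genotypes at E8.5, Col4a3 ran from -0.1774 to 0.1822, Col4a4 from -0.1864 to 0.02946 and Col4a5 from -1.155 to 2.955. At E12, Col4a2 ran from -0.6939 to 0.1052, Col4a5 from -0.1274 to 0.1825 and Col8a2 from -0.01993 to 0.4844. For the stage difference of the knockout effect, Col4a3 ran from -0.1577 to 0.2019 and Col4a5 from -2.928 to 1.182.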
